A study of Mus musculus with 9 samples.

Results

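Narrow H3K27ac peaks at promoters of wild-type (WT) mouse limb buds were examined for their absence from limb buds lacking Sonic hedgehog, alone or together with GLI3. A WT peak entered the set when it was under 1500 bp wide, lay in a promoter window, and overlapped no peak of the Shh-/- list, no peak of the Shh-/-;Gli3-/- list, or no peak of either. A promoter window covered 2 kb before and 1 kb after the start of a protein-coding transcript, with 41451 starts of 21864 genes considered. Of 25096 WT peaks, 12654 were narrow promoter peaks, and 2739 of these were missing from at least 1 mutant list, or 21.6% (95% Wilson interval 20.9 to 22.4). Intervals throughout reflect counting over peaks only and do not include differences among embryos. The peaks were chosen by measured values, namely the width of the WT peak and its lack of overlap with mutant peaks, so their absence is described and not tested. The first question asked of each peak was whether its promoter had emptied or had kept another mutant peak. Emptied refers here to called peaks only, since a signal under the calling threshold cannot be told from none.

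The immunoprecipitations used single pairs of E10.5 forelimb buds (33 to 34 somites) from mice of 3 genotypes. The labels call their strain background mixed, while the study's methods place the Shh and Gli3 null alleles on Swiss Webster. The genotypes were WT, Shh-/- and Shh-/-;Gli3-/-, with 2 ChIP replicates and 1 input each, and per the study's methods the WT embryos were Shh+/+;Gli3+/+ littermates of the double mutants. The mutants carried null alleles of Shh and Gli3 in all of their cells, and the labels name no treatment. Each genotype had 1 peak list (25096 WT, 32085 Shh-/- and 34641 Shh-/-;Gli3-/- peaks), so replicate error is not known for any difference below, and the lists hold no read totals, so the depth of each library was not used. The sources do not settle whether a list pools both replicates or holds the first alone. Groups follow the sample titles, because the labels list all samples as wild type under genotype.

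Acetylation of histone H3 at lysine 27 (H3K27ac) is deposited around the starts of transcribed genes and at active enhancers, and at strong promoters it often spans several nucleosomes on both sides of the start. Sonic hedgehog (SHH) is produced in the posterior limb bud and prevents the processing of GLI3 into a transcriptional repressor. Without SHH, GLI3 repressor occupies Hedgehog target genes throughout the bud, and removing Gli3 as well takes away most of that repressor while activation by SHH stays absent. Gli1 and Ptch1 are direct targets that report pathway activity in most tissues, and the 5′ Hoxd genes pattern the digits downstream of the pathway.

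The tissue of the lists was checked against marker genes. Promoter peaks were found at 31 of 35 limb mesenchyme transcription factors in the WT list and at 32 in each mutant list. None of 5 hindlimb identity genes had one in any list. Of 24 ectoderm and apical ridge genes, 0 had one in WT, 2 in Shh-/- and 1 in Shh-/-;Gli3-/- limb buds, and of 16 blood genes 0, 2 and 3. Peaks were found at 1, 1 and 4 of 9 muscle precursor genes, at 3, 3 and 4 of 15 endothelial genes, and at 2 of 13 neural genes in each list. Cartilage and skeletal condensation genes had them at 5, 9 and 6 of 17. The 20 housekeeping controls had a promoter peak in all 3 lists.

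Stretches of the named promoters that carried the missing peaks are printed here so that their base composition can be read beside the values. They come from the assembly GRCm38 (mm10), are given 5′ to 3′ on the strand of the gene, and leave out bases of untranslated exons. Capitals mark a match to a searched motif (TATAAA in Sry, the CCAAT box as ATTGG in Ddit4 and Map6d1, and the SP motif GGGGCGGGG in Rasgef1b). The first 2 peaks were missing only from Shh-/- limb buds, at chrY:2663375-2663674 (minus strand) in the coding exon of Sry and at chr12:36042050-36042313 (minus strand) from the first codon of Tspan13 into its intron.
Sry: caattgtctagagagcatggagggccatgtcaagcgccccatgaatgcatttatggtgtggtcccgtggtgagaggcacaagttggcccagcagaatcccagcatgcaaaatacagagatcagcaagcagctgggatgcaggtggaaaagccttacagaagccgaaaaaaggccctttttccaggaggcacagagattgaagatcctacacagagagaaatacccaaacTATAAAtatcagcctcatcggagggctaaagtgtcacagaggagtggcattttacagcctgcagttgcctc
Tspan13: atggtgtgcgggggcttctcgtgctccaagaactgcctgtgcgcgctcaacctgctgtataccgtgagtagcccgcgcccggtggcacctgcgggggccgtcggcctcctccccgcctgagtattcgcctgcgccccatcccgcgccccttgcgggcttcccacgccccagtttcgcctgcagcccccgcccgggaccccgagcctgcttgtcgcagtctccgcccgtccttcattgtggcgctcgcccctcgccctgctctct

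A pair of peaks missing only from Shh-/-;Gli3-/- limb buds lay upstream of Ddit4 at chr10:59952275-59952574 (minus strand) and over the coding start of Prr5 at chr15:84681210-84681449 (plus strand).
Ddit4: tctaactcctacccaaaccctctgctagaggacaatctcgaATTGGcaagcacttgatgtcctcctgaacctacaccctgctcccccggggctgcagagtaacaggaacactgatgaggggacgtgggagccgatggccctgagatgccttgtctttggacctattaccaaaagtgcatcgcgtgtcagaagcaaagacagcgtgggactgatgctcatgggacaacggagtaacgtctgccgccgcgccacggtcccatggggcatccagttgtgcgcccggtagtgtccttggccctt
Prr5: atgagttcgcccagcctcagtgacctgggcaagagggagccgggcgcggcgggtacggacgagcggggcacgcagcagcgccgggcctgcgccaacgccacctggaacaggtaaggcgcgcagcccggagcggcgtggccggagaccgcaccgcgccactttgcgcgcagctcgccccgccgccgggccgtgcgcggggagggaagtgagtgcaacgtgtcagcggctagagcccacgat

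Peaks missing from both mutants included one upstream of Map6d1, at chr16:20241400-20241599 (minus strand), and the one farthest into Gli1 of 3 such peaks, in an intron at chr10:127340950-127341049 (minus strand). The strongest Gli1 peak lay mostly over untranslated exons and is not printed.
Map6d1: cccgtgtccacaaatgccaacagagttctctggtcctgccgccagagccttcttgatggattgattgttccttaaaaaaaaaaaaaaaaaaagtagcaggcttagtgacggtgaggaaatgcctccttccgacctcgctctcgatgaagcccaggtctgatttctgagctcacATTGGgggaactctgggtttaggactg
Gli1: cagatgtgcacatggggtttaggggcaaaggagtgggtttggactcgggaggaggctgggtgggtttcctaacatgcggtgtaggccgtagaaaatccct

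The Hedgehog target promoters that emptied only in Shh-/- limb buds are shown for comparison, at chr2:74668400-74668499 (plus strand, coding exon of Hoxd13), chr2:74673000-74673149 (plus strand, upstream of Hoxd12) and chr5:99728481-99728780 (minus strand, Rasgef1b intron).
Hoxd13: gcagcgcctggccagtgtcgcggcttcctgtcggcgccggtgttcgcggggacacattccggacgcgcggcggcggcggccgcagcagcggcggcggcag
Hoxd12: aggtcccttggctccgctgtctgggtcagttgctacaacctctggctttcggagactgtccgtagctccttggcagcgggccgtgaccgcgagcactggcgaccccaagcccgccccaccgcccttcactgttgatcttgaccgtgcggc
Rasgef1b: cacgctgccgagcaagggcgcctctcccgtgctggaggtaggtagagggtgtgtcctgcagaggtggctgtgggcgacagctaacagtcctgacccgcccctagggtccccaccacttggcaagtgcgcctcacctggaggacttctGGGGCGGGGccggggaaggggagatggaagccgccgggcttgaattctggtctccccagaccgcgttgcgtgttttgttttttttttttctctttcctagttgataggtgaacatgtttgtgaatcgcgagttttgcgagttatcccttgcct

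These stretches ranged widely in composition. The 100 bases of Hoxd13 were 79% G or C with 19 CpG dinucleotides, the 240 bases of Prr5 73.75% with 34, and the 264 bases of Tspan13 70.83% with 28. The 300 bases of Sry were 49.67% G or C with 4 CpG dinucleotides, and the 200 bases of Map6d1 48.5% with 6.

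Most of the missing peaks were edges of promoters that kept another called mutant peak, and a smaller part marked promoters without one. A peak is called an edge where, for every list it was missing from, some other peak of that list remained in the promoter windows it touched. A promoter is called vacant where no such peak remained, and partly vacant where a peak missing from both lists kept a neighbour in only one of them. Edges made up 2068 of the 2739 peaks (75.5%, 73.9 to 77.1), peaks at vacant promoters 536 (19.6%, 18.1 to 21.1) and peaks at partly vacant promoters 135 (4.93%, 4.18 to 5.8). Of the 536, 53 (9.89%) had a gene that kept a peak of the missing list at another of its starts, so these were vacant alternative promoters and not vacant genes. The majority of edges depended on the settings. For equal covered length, the mutant lists were cut by rank to the length of the WT list, which left 16846 Shh-/- and 9365 Shh-/-;Gli3-/- peaks. Then 67.5% of the peaks missing from Shh-/-;Gli3-/- and 40.8% of those missing from Shh-/- were at promoters with no peak of that mutant. Where a mutant peak within 500 bp counted as overlap, which removes most edges, the shares were 80.4% and 72.3%.

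The peaks divided into 967 missing only from the Shh-/- list (7.64% of narrow WT promoter peaks), 680 missing only from the Shh-/-;Gli3-/- list (5.37%) and 1092 missing from both (8.63%). Vacant promoters accounted for 174 of the first (18%, 15.7 to 20.5), 152 of the second (22.4%, 19.4 to 25.6) and 210 of the third (19.2%, 17 to 21.7). The intervals of these 3 shares overlap. Counted per mutant, 2059 peaks were missing from Shh-/- limb buds and 451 of them (21.9%, 20.2 to 23.7) left no Shh-/- peak in the windows. In Shh-/-;Gli3-/- limb buds 1772 were missing and 430 (24.3%, 22.3 to 26.3) left none. As background, 36.6% of all WT peaks were missing from the Shh-/- list and 29.2% from the Shh-/-;Gli3-/- list, against 16.3% and 14% of the narrow promoter peaks. Narrow promoter peaks were therefore absent less often than WT peaks in general, in both mutants.

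**Figure D1:**
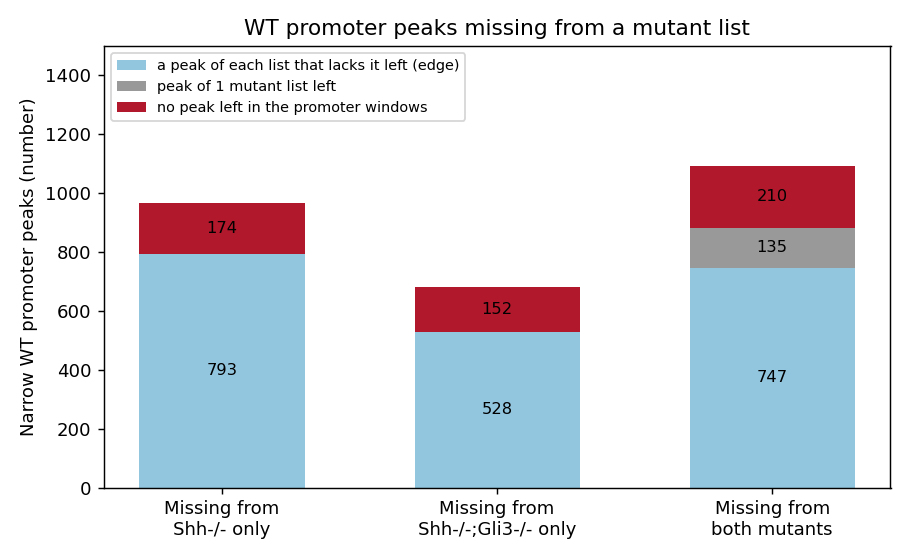
Narrow WT promoter peaks missing from a mutant list (number, vertical axis) by which list lacks them, stacked by what is left in their promoter windows. In each of the 3 bars edges are the largest part (793, 528 and 747 peaks) and vacant promoters hold 174, 152 and 210.

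Expressed per gene, 2682 of 9180 genes with a narrow WT promoter peak carried at least 1 missing peak (29.2%), but few had no called mutant peak at any start. Peaks of both mutants remained at a start of 2119 of the 2682 genes (79%, 77.4 to 80.5). A Shh-/-;Gli3-/- peak alone remained at 193 genes (7.2%), a Shh-/- peak alone at 199 (7.42%), and no mutant peak at 171 (6.38%). The 171 genes are 1.86% of the 9180. A single missing peak was found at 2337 genes (87.1%), 2 at 304 and 3 or more at 41. Dlg4, which encodes the postsynaptic scaffold PSD-95, and Sorbs3, which encodes the adhesion adaptor vinexin, had 4 each. The 4 peaks of Sorbs3 were edges with WT log2 folds of 2.19 to 2.41, and those of Dlg4 had folds of 2.25 to 2.48, 3 of them edges and 1 partly vacant.

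The width limit did not decide which peaks were found. The widest missing peak spanned 900 bp at Camk2n1, an inhibitor of the kinase CaMKII (chr4:138453700-138454599, WT log2 fold 2.84), and was an edge lying 100 bp from a Shh-/- peak. The next was the 850 bp peak of Ddit4. Just outside the limit, the 1500 bp peaks of Chordc1 (log2 fold 6.04) and Atp2a2 (5.99), the calcium pump of the endoplasmic reticulum, were kept in both mutants. None of the 773 WT promoter peaks at or above 1500 bp was missing from a mutant list.

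Distances were split, for each mutant list, by whether a peak of that list remained in the promoter windows. A peak at a partly vacant promoter therefore falls in a different group for each list. The split itself places the group with a remaining peak nearer, so the contrast between the groups is only a description. Where a Shh-/- peak remained, the median distance to the nearest was 150 bp (quartiles 50 and 312.5 bp, n = 1608). Of these missing peaks, 286 (17.8%) directly adjoined one, and 89.4% lay within 500 bp. For the Shh-/-;Gli3-/- list the median was also 150 bp (n = 1342), 271 (20.2%) adjoined a peak, and 92.3% lay within 500 bp. Where no Shh-/- peak remained, the nearest was a median of 29750 bp away (n = 451), and 76.7% had none within 10 kb. The corresponding Shh-/-;Gli3-/- values were 27425 bp (n = 430) and 76%. Only 7 of the 451 (1.55%) had a Shh-/- peak within 500 bp, just beyond the window. One was at Gnas, which encodes the stimulatory G protein subunit, where a Shh-/- peak began 300 bp away.

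**Figure D2:**
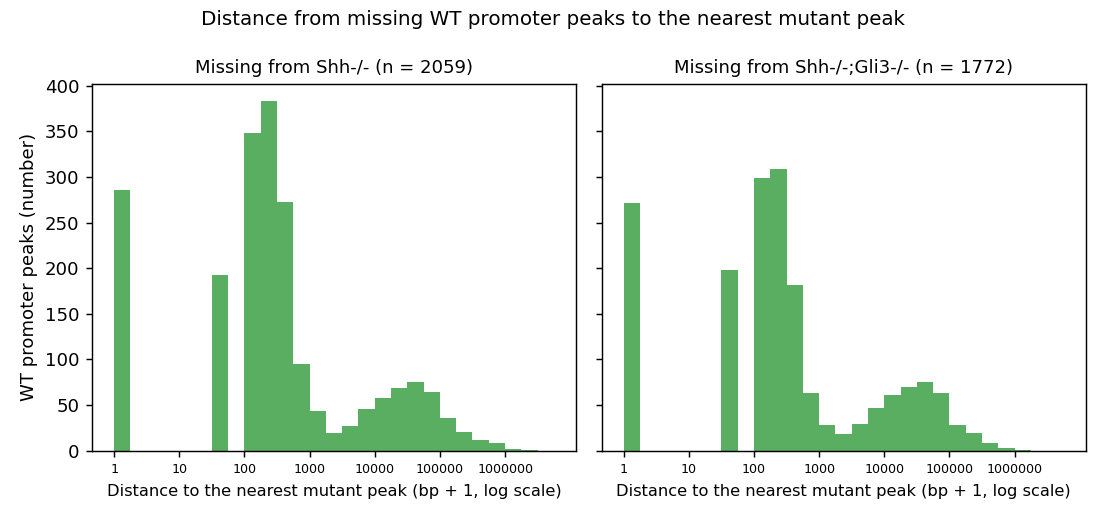
Distance from each missing WT promoter peak to the nearest peak of the mutant list that lacks it (bp plus 1, log-scaled horizontal axis), with the number of peaks on the vertical axis, for Shh-/- (left, n = 2059) and Shh-/-;Gli3-/- (right, n = 1772). Both panels show a group of short distances, with adjoining peaks at the far left (286 and 271), and a separate, smaller group beyond 1000 bp.

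Edges mostly belonged to promoters with several WT peaks. Another WT peak lay in the windows of 1763 of 2068 edges (85.3%) and of 96 of 536 peaks at vacant promoters (17.9%), compared with 61.9% of the 9915 narrow promoter peaks kept in both mutants. At 1690 edges (81.7%, 80 to 83.3) a neighbouring WT peak in the windows itself overlapped each list the edge was missing from. An edge is defined by another mutant peak in its windows, and most narrow WT promoter peaks were kept in both mutants. These shares of neighbours thus partly follow from the definition and are only a description. Where a peak was missing from 1 mutant, the peak of the other mutant over it was often wider than in WT. Edges missing only from Shh-/- limb buds had a median width of 200 bp in WT, and the Shh-/-;Gli3-/- peaks over them 450 bp. At vacant promoters of that class the medians were 200 and 300 bp. Kept peaks also differed in width between the lists, with medians of 450 bp in WT, 600 bp in Shh-/- and 750 bp in Shh-/-;Gli3-/- limb buds.

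The missing peaks were weak and narrow in WT. Their median log2 fold over input was 2.425, compared with 3.228 for the kept peaks, and the value was 2.504 at vacant promoters and 2.409 at edges. Their median width was 150 bp, compared with 450 bp. Width entered the choice of peaks, and a narrower peak has fewer bases that can overlap a mutant peak. The width contrast is therefore only a description. A false discovery rate (FDR) below 0.05 was given to 1029 of them (37.6%), to 46.1% of those at vacant promoters, to 35.8% of edges and to 83.2% of kept peaks. Among the 9276 narrow WT promoter peaks with an FDR below 0.05, the 1029 made up 11.1%, and 247 of the 1029 (24%) were at vacant promoters.

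The share of missing peaks fell steeply with WT fold. In the lowest of 5 equal bins of narrow WT promoter peaks (log2 fold 2.05 to 2.43), 41.8% were missing from Shh-/- and 36.7% from Shh-/-;Gli3-/- limb buds. In the next to highest bin (3.23 to 3.84) these shares were 2.77% and 2.37%. In the highest bin (3.84 to 6.49), 6 peaks (0.237%) and 3 peaks (0.119%) were missing, and 2 were at vacant promoters, namely those of Sry and Tspan13.

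**Figure D3:**
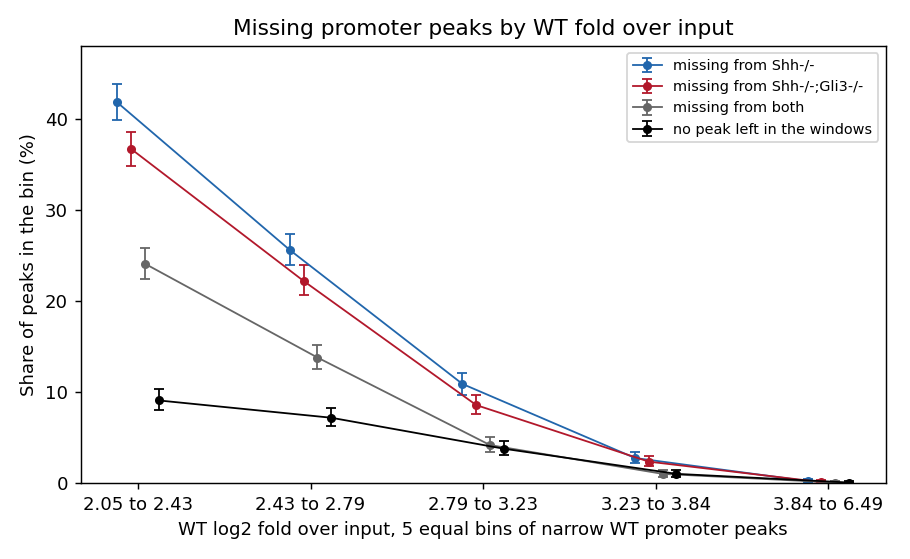
Share of narrow WT promoter peaks (percent, with 95% Wilson intervals) that were missing from each mutant list, from both, or at vacant promoters, in 5 equal bins of WT log2 fold over input. The share missing from Shh-/- falls from 41.8% in the lowest bin to 0.237% in the highest, and the share at vacant promoters from 9.09% to 0.079%.

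The position of the peaks differed between edges and vacant promoters. The centre was within 500 bp of the nearest start for 81.3% of peaks at vacant promoters, 55.5% of edges and 82.7% of kept peaks. It lay upstream of the start for 29.9%, 51.8% and 28.7% in the same order. By annotation, 41.5% of the missing peaks had their centre in an intron, 34.8% outside transcripts, 13.5% in an untranslated exon and 10.1% in a coding exon. At vacant promoters 18.8% lay outside transcripts, and among edges 39.2%.

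Base composition, which the choice of peaks did not use, also differed. In the 300 bases around the centre, the median GC content was 54.67% for missing and 63.67% for kept peaks, and the observed over expected CpG ratio 0.521 and 0.763. Kept peaks with a log2 fold in the middle range of the missing peaks (n = 1834) had medians of 59% and 0.681. These were not matched for position, as 81% of them and 61.6% of missing peaks had their centre within 500 bp of a start. The median CpG ratio was 0.611 at vacant promoters and 0.493 at edges, and among the classes it was lowest for peaks missing from both mutants (0.452). A ratio under 0.6 was found for 60.2% of missing peaks, 25.4% of kept peaks and 38.3% of kept peaks in the same fold range.

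Motif matches were counted in the same 300 bases on both strands. The GLI motif GACCACCCA was present in 9 missing peaks (0.329%), 0.272% of kept peaks and 0.253% of the 32851 RefSeq promoters of the same length and build. None of the 967 peaks missing only from Shh-/- held it (0%, 0 to 0.396), an interval that includes the shares of kept peaks and RefSeq promoters. The 3 at vacant promoters were at Map6d1, where the match lay outside the 200 bases printed above, at Abcc5, a nucleotide transporter, and at Ccng1, which encodes cyclin G1. The shorter core ACCACCC, contained in the GLI motif, was found in 5.37%, 5% and 4.61% of missing, kept and RefSeq sequences. The ETS motif CCGGAAGT was in 1.24% of missing and 2.69% of kept peaks, the NRF1 motif in 0.11% and 0.403%, and the YY1 motif in 0.073% and 0.736%. CCAAT was in 26.7% and 18.6%, and TATAAA in 8.62% and 3.73%. Edges held these 2 in 28.4% and 9.82%, peaks at vacant promoters in 21.5% and 5.22%, and RefSeq promoters in 37.4% and 13.6%. In the kept peaks of the same fold range the ETS share was 1.85%, the YY1 share 0.709%, CCAAT 22.2% and TATAAA 5.51%, each between the shares of missing and of all kept peaks. A match of letters does not show that a factor bound there.

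Gli1, the transcriptional activator whose own transcription reports Hedgehog signaling, had the strongest vacant promoter missing from both mutants. Its 500 bp peak over the start (chr10:127341500-127341999) had a WT log2 fold of 3.59 and was followed by a 200 bp peak (fold 2.22, FDR 0.2541) and a 100 bp peak (fold 2.17, FDR 0.297). With 3 further WT peaks in the body of the gene, 6 WT peaks stood within 2474 bp downstream of the start, and neither mutant had any there. The nearest Shh-/- peak was 29500 bp and the nearest Shh-/-;Gli3-/- peak 29750 bp from the 500 bp peak. The next in this class were Map6d1 (3.59), a relative of the microtubule-stabilising protein MAP6, Mcrip2 (3.43), Abca5 (3.39), a lipid transporter, and Zfp423 (3.33), a zinc finger factor. Zfp423 was not among the 171 genes without a mutant peak, so a mutant peak remained at another of its starts.

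Other Hedgehog promoters emptied in Shh-/- limb buds and kept a peak in the double mutants. Hoxd13 had only a weak 100 bp WT peak (2.12, FDR 0.3138), no Shh-/- peak, and a 950 bp Shh-/-;Gli3-/- peak (3.53). At Hoxd12 a 150 bp WT peak upstream of the gene (2.76) was overlapped in part by a 500 bp Shh-/-;Gli3-/- peak (2.93) and by no Shh-/- peak. Both Hoxd genes encode factors of digit patterning. Rasgef1b, an exchange factor for Ras-family GTPases, had a 400 bp WT peak (2.62) with the nearest Shh-/- peak 177200 bp away. Other starts of Rasgef1b kept 2 Shh-/- peaks, so this was a vacant alternative promoter and not a vacant gene. Kif7, the kinesin of the primary cilium that regulates GLI proteins, showed the reverse pattern, with a 100 bp WT peak (2.39) missing only from the double mutants.

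**Figure D4:**
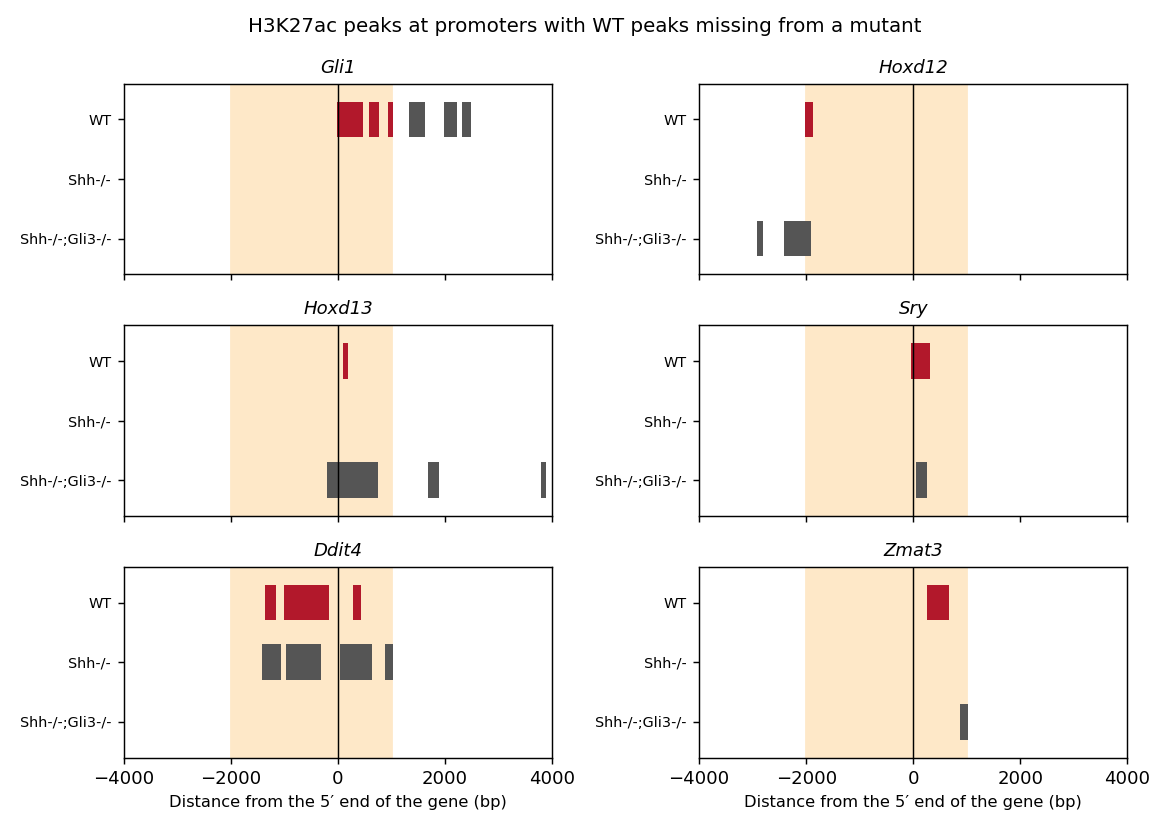
H3K27ac peaks of the 3 lists around the 5′ end of 6 genes (horizontal axis in bp from the 5′ end, downstream to the right, rows by genotype). Red bars are WT peaks missing from a mutant list, grey bars other peaks, and shading the promoter window of that start. Gli1 has 6 WT peaks and no mutant peak, Hoxd12, Hoxd13 and Sry lack a Shh-/- peak only, Ddit4 lacks Shh-/-;Gli3-/- peaks, and Zmat3 keeps a single Shh-/-;Gli3-/- peak beside its WT peak.

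Over the whole list of Hedgehog pathway genes and limb targets, 12 of the 23 genes with a narrow WT promoter peak had a missing peak (52.2%), compared with 29.2% of all such genes. They carried 16 missing peaks, of which 10 were missing only from Shh-/-, 2 only from Shh-/-;Gli3-/- and 4 from both. The counts over all 2739 missing peaks were 967, 680 and 1092. Of the 16, 8 were at vacant promoters, compared with 19.6% of all missing peaks. The edges included the SHH receptor Ptch1, with WT peaks of log2 fold 2.72 and 2.57, both under the same 1350 bp Shh-/-;Gli3-/- peak and 1450 and 550 bp from the nearest Shh-/- peak. The cyclin genes Ccnd1 (3.41 and 3.11) and Ccnd2 (3.12) and the digit gene Hoxd11 (2.98) were likewise edges missing only from Shh-/- limb buds. The edge of Hoxd11 adjoined a Shh-/- peak and was covered by a 12050 bp Shh-/-;Gli3-/- peak. Tbx2, a T-box repressor, had an edge missing from both (2.34), and Gas1, a SHH co-receptor, one missing only from the double mutants (2.14). This list was drawn up with earlier results of these data known, so its count is no independent evidence.

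Hox genes, which set position along the body and limb axes, had a missing peak at 18 of 25 genes (72%, compared with 29.2% of all genes). There were 21 such peaks, of which 14 were missing only from Shh-/-, 2 only from Shh-/-;Gli3-/- and 5 from both. Of all 2739 missing peaks, 967, 680 and 1092 fell in these classes. Of the 21, 15 were edges and 6 were at vacant promoters. Apart from the 5′ Hoxd genes above, the strongest was at Hoxc5 (log2 fold 3.44), missing only from Shh-/-, followed by Hoxb6 (3.27) and Hoxc4 (2.69), missing only from the double mutants. The transcription factors of limb mesenchyme were near the background, at 7 of 25 (28%). Of their 12 missing peaks 10 were edges, led by Alx1, an anterior limb factor (3.40, missing only from Shh-/-), and Irx5 (3.02, missing only from Shh-/-;Gli3-/-). The 1 vacant promoter in that list was an alternative start of Tfap2a (2.74, missing only from the double mutants). Other starts of Tfap2a kept 4 Shh-/-;Gli3-/- peaks.

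Among other signaling genes, 12 of 29 WNT pathway genes (41.4%) and 4 of 24 FGF, BMP and retinoic acid genes (16.7%) had a missing peak, compared with 29.2% of all genes. The secreted WNT inhibitor Frzb had an edge missing only from Shh-/- (log2 fold 3.64), 50 bp from a Shh-/- peak. The promoter of another secreted inhibitor, Sfrp1 (2.64), was vacant in both mutants. The retinoic acid receptor gene Rarg (3.75) and the limb outgrowth factor Fgf10 (3.14) had their strongest missing peaks at edges absent only from Shh-/- limb buds. The BMP antagonist Nog had a weak peak (2.32) that was missing only from the double mutants and left a vacant promoter. Of the cell cycle genes 10 of 34 (29.4%) had a missing peak, all but 2 of the 12 peaks being edges. The strongest were at Rbl2 (3.57), a relative of the retinoblastoma protein, and Cdk6 (3.19), a kinase of the G1 phase. The vacant promoters were those of Cdc25b (2.79, both mutants), a phosphatase that promotes mitosis, and Cdkn2c (2.21, double mutants only), an inhibitor of CDK4 and CDK6.

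Imprinted genes, expressed from 1 parental allele, had a missing peak at 11 of 18 (61.1%, compared with 29.2% of all genes). Of the 15 peaks, 9 were missing only from Shh-/- and 12 were edges. Among all 2739 missing peaks, 967 were missing only from Shh-/- and 75.5% were edges. Examples were Peg3 (3.78, missing only from the double mutants), the growth factor gene Igf2 (3.60 and 3.01) and Mest (2.92), the latter pair missing only from Shh-/-. Magel2 (3.21) was vacant in the double mutants only.

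Histone, ribosomal and other gene families of basic cell functions were read against 29.2% of all genes with a missing peak and 75.5% of missing peaks being edges. Replication-dependent histone genes had a missing peak at 20 of 50 (40%), and all 22 peaks were edges, led by Hist1h4c (4.39, missing only from Shh-/-). Cytosolic ribosomal protein genes had one at 15 of 76 (19.7%), with all 18 peaks edges, and complex I genes of the respiratory chain at 10 of 34 (29.4%), with all 13 edges. For mitochondrial ribosomal protein genes the count was 17 of 75 (22.7%), with 15 of 18 peaks edges. For proteasome subunits it was 6 of 34 (17.6%), with 5 of 7 peaks edges. The housekeeping controls had 5 missing peaks at 5 of 18 genes (27.8%), all edges. Histone genes are clustered and share near-identical sequence, so reads of one can be placed at another.

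Zinc finger genes named Zfp and solute carriers made up larger lists. The first had a missing peak at 83 of 262 (31.7%, all genes 29.2%), with 23 of 91 peaks at vacant promoters, and the second, which encode membrane transporters, at 51 of 129 (39.5%), with 15 of 58. Over all missing peaks, 19.6% were at vacant promoters, and the difference of these lists from that share was not tested. Of the 58 peaks at solute carriers 31 were missing from both mutants, compared with 1092 of all 2739 missing peaks. In the small lists, cartilage genes had a missing peak at 2 of 5 (Col9a1 and Sox6), endothelial genes at 1 of 2 (Egfl7), muscle precursor genes at 1 of 1 (Eya1), neural genes at 0 of 2 and olfactory receptors at 1 of 1. Hindlimb, ectoderm and blood genes had no narrow WT promoter peak.

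The strongest vacant promoters missing only from Shh-/- limb buds were those of Sry (log2 fold 4.33), the Y-linked testis-determining gene, Tspan13 (4.01), a tetraspanin, Zfp738 (3.79) and Zfp937 (3.65), 2 zinc finger genes, and Bhlhb9 on the X chromosome (3.59). The nearest Shh-/- peak was at least 40250 bp from each of the 5. Of those missing only from the double mutants, the strongest were Ddit4 (3.56), a stress-induced inhibitor of mTOR signaling, Prr5 (3.54), a component of the mTOR complex 2, Entpd7 (3.48), a nucleotidase, Polr2g (3.43), a subunit of RNA polymerase II, and Efhd2 (3.37), a calcium-binding protein. Ddit4 had 3 WT peaks (log2 folds 2.17, 3.56 and 2.53) and 4 Shh-/- peaks around its start, and the nearest Shh-/-;Gli3-/- peak was 7900 bp away.

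The strongest edges were stronger than most missing peaks. Missing only from Shh-/- were those of Hist1h4c, Mpc2 (4.25), a subunit of the mitochondrial pyruvate carrier, and Gap43 (3.80), a growth cone protein, which lay 500, 100 and 250 bp from a Shh-/- peak. Missing only from Shh-/-;Gli3-/- were Lpar2 (4.31), a receptor of lysophosphatidic acid, Peg3 and Igdcc4 (3.76), which lay 250, 200 and 50 bp from a peak of that list. Missing from both were Timm29 (3.91), of the mitochondrial import machinery, Iqcd (3.57) and Fbxl7 (3.42), a ubiquitin ligase adaptor. The promoter of Zmat3 (4.13), a p53 target, was not an edge but partly vacant. A 150 bp Shh-/-;Gli3-/- peak remained 200 bp from its WT peak, and the nearest Shh-/- peak was 31300 bp away.

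Sry and Bhlhb9 lie on sex chromosomes, and X-linked peaks were unevenly spread over the classes. They made up 74 of the 967 peaks missing only from Shh-/- (7.65%, 6.14 to 9.5), 8 of the 680 missing only from Shh-/-;Gli3-/- (1.18%, 0.597 to 2.3), 2.47% of those missing from both and 2.72% of kept peaks. Of the 379 narrow WT promoter peaks on X, 26.6% (22.4 to 31.3) were missing from Shh-/- and 9.23% (6.72 to 12.6) from Shh-/-;Gli3-/- limb buds, compared with 15.9% and 14.2% on the autosomes. The single autosomes ranged from 12.8% to 20.3% for Shh-/- and from 9.79% to 17.8% for Shh-/-;Gli3-/-. Among peaks with an FDR below 0.05 the X shares were 18.5% and 3.94%, and the autosomal shares 7.83% and 6.74%. The lists differed on the sex chromosomes as a whole, with 605 WT, 697 Shh-/- and 1458 Shh-/-;Gli3-/- peaks on X (2.41%, 2.17% and 4.21% of each list) and 8, 22 and 11 on Y. Around the start of Xist, the RNA that silences 1 X chromosome in females, there were 2 WT peaks, 0 Shh-/- peaks and 1 Shh-/-;Gli3-/- peak. Sry had 1, 0 and 1 in that order, while the Y-linked genes Eif2s3y (0, 1 and 1), Kdm5d (0, 1 and 0) and Uty (0, 1 and 0) had none in WT, and 5 other Y-linked genes had none in any list. The labels do not give the sex of the embryos, and its part in these X-linked and Y-linked results was not tested.

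**Figure D5:**
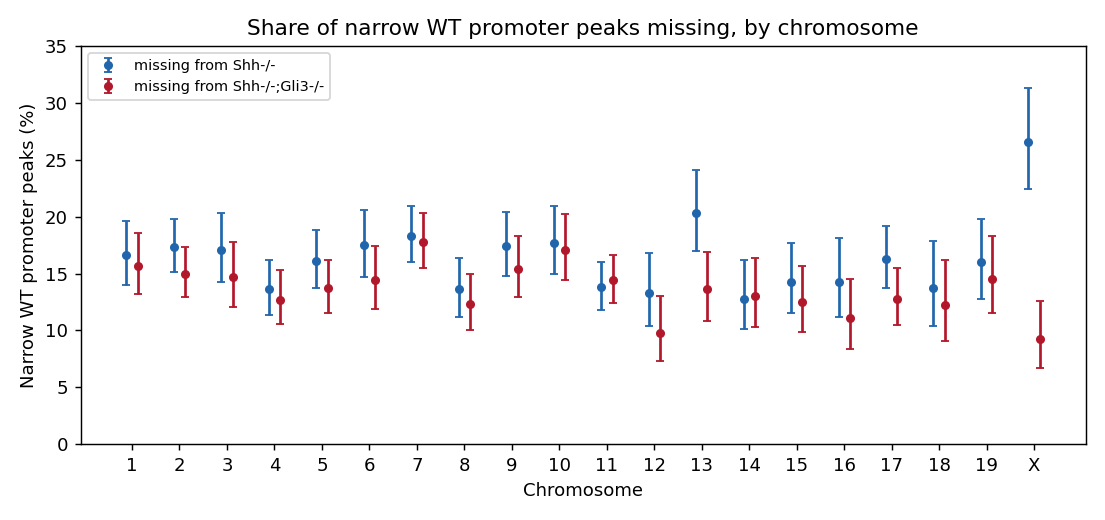
Share of narrow WT promoter peaks missing from the Shh-/- list (blue) and from the Shh-/-;Gli3-/- list (red) on each chromosome (percent, with 95% Wilson intervals). On X the shares are 26.6% and 9.23%, while the autosomes range from 12.8% to 20.3% and from 9.79% to 17.8%.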

How the data were processed

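H3K27ac MicroChIP-seq libraries (12 PCR cycles per the labels) were made by the authors from E10.5 forelimb buds. Reads were aligned to mm10 (Bowtie2 2.2.5 in the submitters' processing notes), and CisGenome 2.1.0 gave 1 peak list per genotype. In the labels the first replicate carries the list of its genotype, while the study's methods name a pair of biological replicates. Whether a list pools them is not settled, and no list holds a value per replicate. The deposited fold is the largest log2 fold of ChIP over the input of that genotype within a peak, so folds of different lists were not compared. The deposited score (the largest value of the caller's statistic, lowest 3.00 in each list) and the deposited −log10 p-value entered no result. The highest deposited FDR (a q-value) was 0.35 for WT, 0.186 for Shh-/- and 0.109 for Shh-/-;Gli3-/- peaks, beyond 0.05 in all 3 lists. Coordinates are as deposited, in steps of 50 bp, and whether they count from 0 or 1 is not given in the sources used here.

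Peaks were compared by an overlap of at least 1 bp in Python 3.11.15 (numpy 2.4.6, pandas 2.3.3, pysam 0.24.0). Promoters came from GENCODE M21 (basic set) and sequences from GRCm38. Shares carry Wilson 95% intervals. No p-values were computed, since peaks are not replicates. The overlap code was run on copies of the WT list, with 200 of the 12654 narrow promoter peaks removed from one copy. All 200 were returned (100%). The copies held no shifted, split or weakened peaks, so this checks the code and not how well losses are detected. Missing peaks and the 24 gene lists were chosen with earlier results of these data known. Named genes were the 5 strongest vacant promoters (FDR below 0.05) and 3 strongest edges of each class by WT log2 fold, up to 6 peaks per gene list, genes with the most missing peaks, and peaks nearest the width limit. The carriers of the GLI motif, Zmat3 and Gnas were named after their values were seen. The 9 alternatives are described in the closing section. Some results at named genes are not reported here.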

Additional observations from a re-analysis of the deposited data

How the results depend on the processing

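With 1 list per genotype, replicates could not be left out in turn. No paired analysis was possible because the lists carry no value per replicate. The lists hold no read counts, so a signal under the calling threshold cannot be told from none. Each setting was changed alone. Equal covered length kept only the 16846 top-ranked Shh-/- and the 9365 top-ranked Shh-/-;Gli3-/- peaks beside all 25096 WT peaks. Equal numbers kept the 25096 top-ranked peaks of each list. The shares of narrow WT promoter peaks missing from Shh-/- and from Shh-/-;Gli3-/- (16.3% and 14% as reported) were 8.13% and 6.66% among WT peaks with an FDR below 0.05, 4.85% and 4.19% when a mutant peak within 500 bp counted as overlap, 22.6% and 18.2% when 50% of the WT peak had to be covered, 27.5% and 42.5% with lists of equal covered length, 19.7% and 17.9% with equal numbers of peaks, 15.3% and 13.2% with no width limit, 11.9% and 8.16% with an FDR below 0.05 in all lists, and 13.4% and 11.7% with windows from 1 kb upstream to 500 bp downstream. The order of the mutants thus turned with equal covered length. The shares of these peaks with no peak of that mutant left in the windows (21.9% and 24.3%) were 25.3% and 29.4% with the FDR on WT peaks, 72.3% and 80.4% with the 500 bp gap, 15.8% and 18.7% with 50% coverage, 40.8% and 67.5% with equal length, 27.8% and 33.4% with equal numbers, 33.3% and 37.1% with the FDR on all lists, and 26.7% and 29.1% with the smaller windows. The 171 genes with no mutant peak became 77 with the FDR on WT peaks, 947 with equal length and 297 with equal numbers. With the gap setting edges are removed by construction. For the other changes the cause was not tested. On autosomes alone the shares were 15.9%, 14.2%, 21.7% and 24.6%, with 169 genes.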
